A study of Mus musculus with 29 samples.

Results

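Muscle of 4 fed M-p110βKO mice was compared with muscle of 3 fed p110β-floxed controls, the 7 libraries labelled as fed mice of the p110β line among 29 in the series. The mice were males aged 2–3 months, labelled C57BL/6J, and the tissue is labelled skeletal muscle. The study's legends place RNA-Seq libraries in the tibialis anterior (TA), and its text describes the p110β-floxed mice as less purely C57BL/6 than the p110α-floxed mice. Both groups carry floxed alleles of Pik3cb, and only the M-p110βKO mice carry Cre recombinase. Its promoter, HSA, comes from the human gene of skeletal muscle α-actin and is active in muscle fibers. The other cells of a muscle keep the gene. The labels number each library but do not say more about its source. The p values and intervals of the main fit measure the spread between libraries within groups. That spread was estimated over all 14 libraries of the p110β line, fed and fasted. The question asked of the 7 fed libraries was how large the changes with loss of p110β in fed muscle could be.

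Class I PI3K is a dimer of a catalytic subunit (p110α, p110β, p110δ or p110γ) and a regulatory subunit, and it makes the membrane lipid PIP3 when insulin or IGF-1 binds its receptor. PIP3 recruits the kinase AKT, which drives glucose uptake and glycogen synthesis and keeps FoxO transcription factors out of the nucleus. When PI3K signaling in muscle falls, FoxO factors switch on ubiquitin ligases and autophagy genes of the atrophy program, and fuel use shifts between glucose and fatty acids.

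The libraries held 5859311–8269530 reads assigned to genes, with medians of 7828636 in controls and 7191834 in M-p110βKO. Mitochondrially encoded genes took 9.73–11.5% of reads. Muscle fiber markers were abundant in every library. The summed level of 12 muscle fiber genes was 136796–160198 CPM in controls and 154686–164144 CPM in M-p110βKO, where CPM is the count per 1000000 assigned reads scaled with TMM factors. Lymphocyte and neutrophil markers were too low to test. On a principal component analysis of all tested genes PC1 held 30.4% of the variance. Controls 17 and 18 scored 31.0 and 20.9 on it, control 16 scored −0.97, and the 4 M-p110βKO libraries scored from −20.3 to −4.61. The difference of group means had an exact two-sided permutation p of 0.0286, the smallest that 35 assignments allow, and 0.0571 after Benjamini-Hochberg adjustment over both components. PC2 held 20.6% and set M-p110βKO 19 and 21 (−18.6 and −12.6) against M-p110βKO 20 and 22 (19.1 and 22.5), with an exact p of 0.6 for genotype. Control 16 therefore lay between the other controls and the knockouts, and the knockouts lay in pairs, which bears on several results given here.

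Pik3cb itself, which encodes p110β, did not differ between the groups at the level of the whole gene. Its level was 10.5, 9.98 and 10.7 CPM in the 3 controls and 9.68, 10.2, 9.75 and 11.8 CPM in the 4 M-p110βKO libraries. The ranges overlap, the log2 fold change was −0.00 ± 0.13 (SE), and the 95% interval ran from 0.821 to 1.21 times the control level. This count is not a check of the genotype. Each read of a gene was counted whichever exon it came from, and the methods describe loxP sites around exon 2, while Pik3cb holds 7193 summed exon bases. In the GENCODE M21 annotation of GRCm38 exon 2 (chr9:99122284-99122376, minus strand, 93 bases) holds no coding base and makes up 1.29% of that length. Exon 3 (187 bases, 2.6%) holds the start codon, and exon 4 (226 bases) makes up 3.14%. The sources used here do not say which numbering the floxed exon follows. For either choice, a mouse that lost the exon and kept the rest of the transcript would lose at most a few reads in each 100. Whether the rest of the transcript was kept was not tested. The study reports reduced p110β mRNA in hindlimb muscles of M-p110βKO mice, and the whole-gene counts here show no such fall. The genotype of each library is given as labelled and was not checked by these counts. The coding bases of the first coding exon, at chr9:99105531-99105683 on the minus strand, are printed because the open reading frame begins there, with the start codon in capitals (sequence from the GENCODE M21 transcript Pik3cb-201).
Pik3cb, first coding exon: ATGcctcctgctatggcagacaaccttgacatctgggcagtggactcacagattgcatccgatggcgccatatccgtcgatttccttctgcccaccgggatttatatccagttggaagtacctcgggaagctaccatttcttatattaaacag

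Over all genes, 0 of 12249 (0%) passed an adjusted p of 0.05 in edgeR's quasi-likelihood test, and the lowest adjusted p was 0.0648. At an unadjusted p under 0.05 there were 1060 genes (8.65%), of which 517 (4.22%) were higher and 543 (4.43%) lower in M-p110βKO. Limma-voom also called 0 genes, and DESeq2 called 30 (12 higher and 18 lower). A fit of the 7 fed libraries alone called 12 of 11725 genes, and without control 16 the count was 70 (32 higher and 38 lower). The number of genes past the threshold thus depended on the tool, on which libraries gave the estimate of the spread, and on 1 control.

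The intervals say how large a change could be. The 95% interval of the fold change lay wholly within 2-fold for 10294 genes (84%) and within 1.5-fold for 6931 (56.6%). The estimate was under 0.5 on the log2 scale in 11171 genes (91.2%) and over 1 in 191, and in 9 genes the whole interval lay beyond 2-fold. Each interval stands for 1 gene and is not adjusted for the number of genes tested. These 9 genes did not pass the adjusted threshold, and they include Cilp, whose groups overlap. Precision followed the level of a gene. Among 4199 genes at 3 to 5 log2 CPM 96% were bounded within 2-fold and the median interval reached 1.26-fold either side of the estimate. Among 1126 genes under 1 log2 CPM 21.1% were bounded and the median interval reached 1.88-fold, so for most such genes a 2-fold change could not be bounded at this depth.

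**Figure D1:**
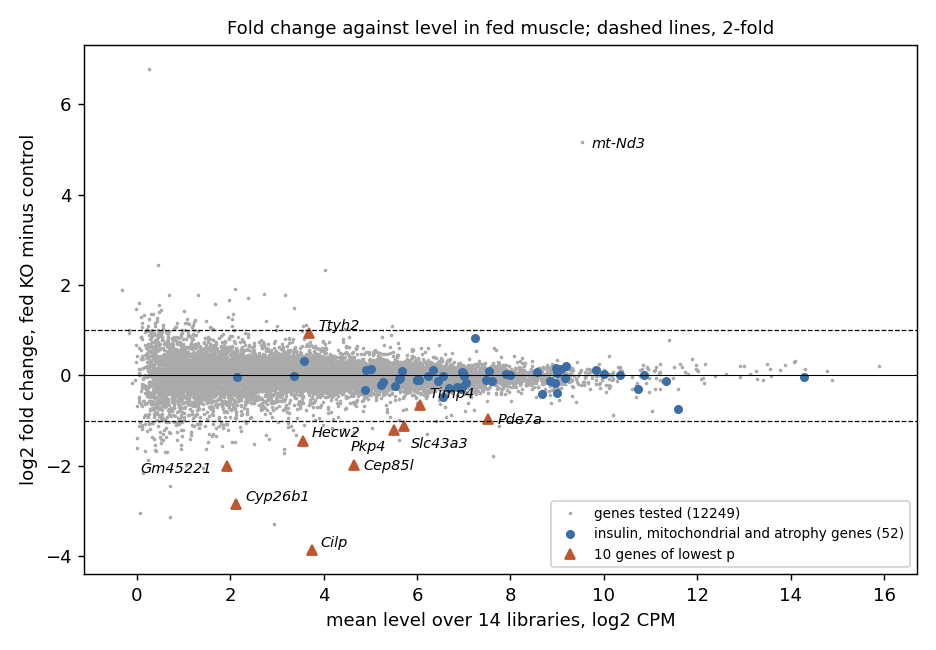
Log2 fold change of fed M-p110βKO minus control (vertical axis) against the mean level in log2 CPM (horizontal axis) for the 12249 genes tested, with the 52 insulin, mitochondrial and atrophy genes as circles and the 10 genes of lowest p as triangles. The dashed lines mark 2-fold, and the estimates of all 52 genes marked by circles lie inside them.

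The genes nearest the threshold were named after their values were seen. Cilp, which encodes a matrix protein of cartilage and connective tissue, had 3.53, 67.5 and 82.9 CPM in the controls and 6.40, 2.02, 3.79 and 1.92 CPM in M-p110βKO. Controls 17 and 18 were high, and control 16 lay within the knockout range, so the groups overlap although the fitted log2 fold change was −3.87 ± 0.62 (adjusted p = 0.0648 in edgeR). Cyp26b1, an enzyme that degrades retinoic acid, had 3.17, 6.60 and 6.97 CPM in controls and 1.25, 0.865, 0.812 and 0.137 CPM in M-p110βKO. All knockouts lay under all controls, and the log2 fold change was −2.85 ± 0.49 (adjusted p = 0.0648). Slc43a3, a purine transporter, had 28.9, 50.9 and 57.4 CPM in controls against 20.2–22.0 CPM in M-p110βKO (−1.12 ± 0.20). Hecw2, a ubiquitin ligase, had 5.96, 17.3 and 15.6 CPM against 4.22–5.42 CPM (−1.45 ± 0.26). Ttyh2, which encodes a membrane protein of the tweety family, was the one of the 5 lowest in p with a higher level in M-p110βKO, at 20.7–29.9 CPM against 15.6, 9.98 and 12.1 CPM (0.93 ± 0.17). In each of these 5 genes control 16 was the control nearest to the knockouts.

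That held for 10 of the 12 genes of lowest p (83.3%), for 650 of the 1060 genes with an unadjusted p under 0.05 (61.3%) and for 5272 of all 12249 (43%). Further genes at an adjusted p of 0.0693 were Cep85l (−1.97), the plakophilin gene Pkp4 (−1.21), the cAMP phosphodiesterase gene Pde7a (−0.96), the metalloproteinase inhibitor gene Timp4 (−0.66) and the predicted gene Gm45221 (−2.00). Without control 16 these 10 genes were all among the 70 called, and Cilp was then −4.43 ± 0.27 with an adjusted p of 5.35e-08. In most genes of lowest p control 16 lay nearest the knockouts. Leaving it out therefore enlarges their differences by construction and adds no support. DESeq2 and the fit of the 7 fed libraries alone both called 7 genes: Cilp, Cyp26b1, Slc43a3, Pkp4, Pde7a, Gbp4 and Mbp. Over the 35 genes that either of them called, the adjusted p in edgeR was 0.0648 to 0.554.

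**Figure D2:**
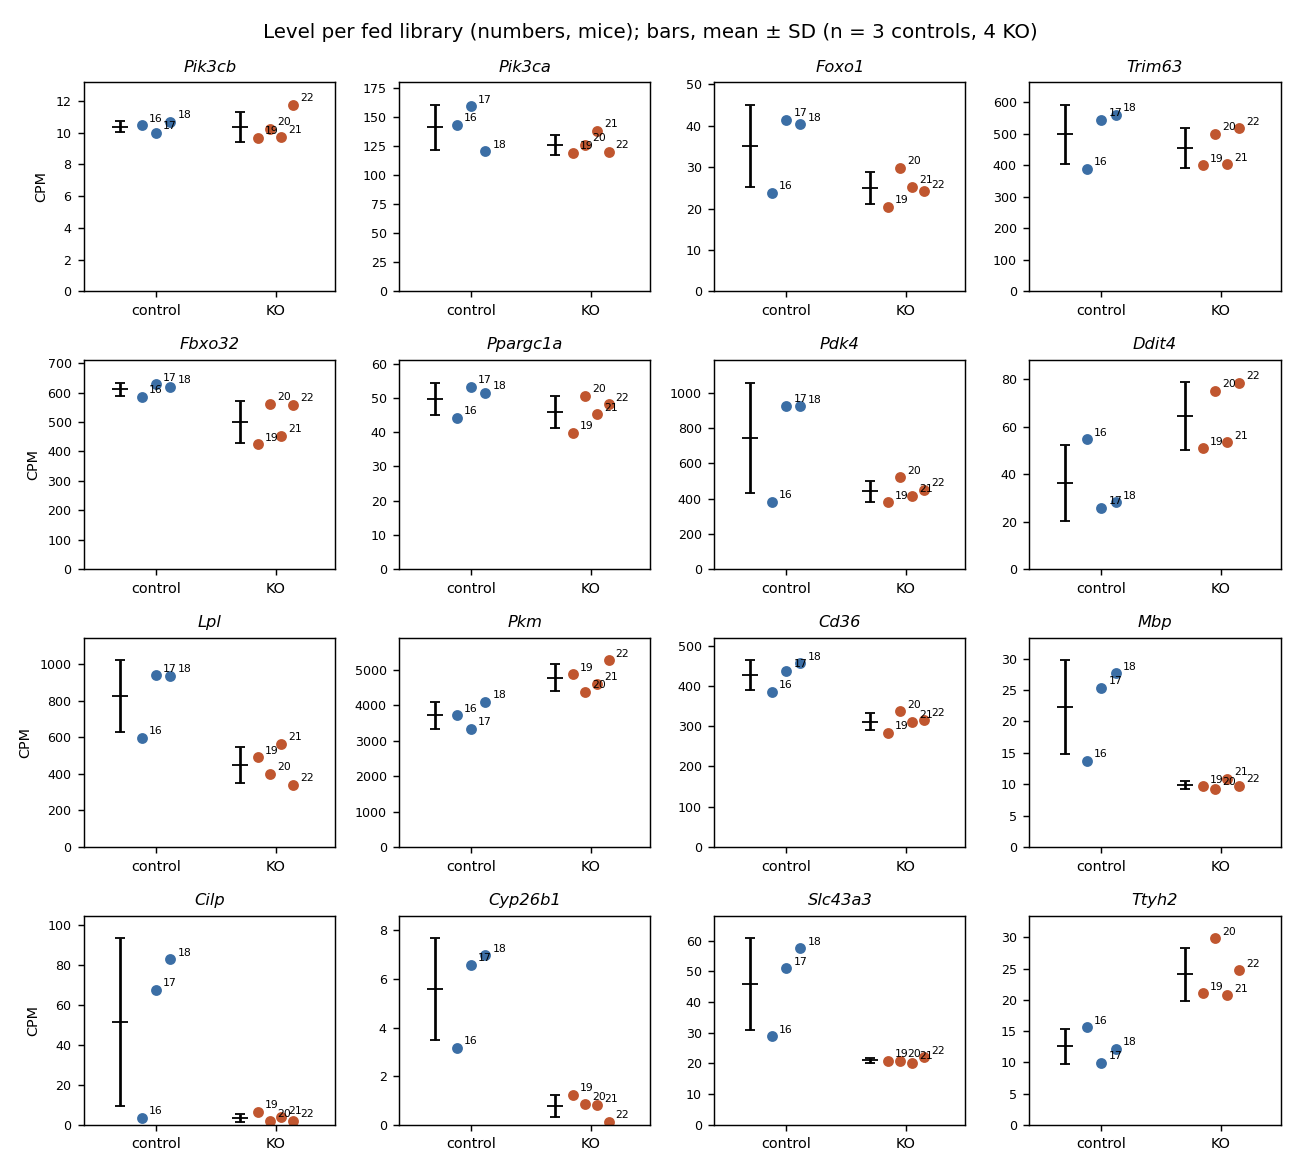
Level in CPM of 16 genes (one panel each, vertical axis from 0) in the 3 fed control and 4 fed M-p110βKO libraries, with the mouse number beside each point and the mean ± SD as a bar. For Pik3cb and Trim63 the groups overlap, for Mbp and Slc43a3 they do not, and for Cilp and Pdk4 control 16 lies among the knockouts.

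None of 15 insulin-signaling genes passed the test, and all 15 intervals lay within 2-fold, 10 of them within 1.5-fold. The receptor genes were low in estimate. Insr, the insulin receptor, had 75.2, 97.2 and 108 CPM in controls and 75.9, 83.5, 67.0 and 76.5 CPM in M-p110βKO (−0.31 ± 0.13, adjusted p = 0.516), with control 16 again inside the knockout range. Igf1r, the IGF-1 receptor, had 32.9, 36.7 and 34.4 CPM in controls and 26.5–31.7 CPM in M-p110βKO without overlap (−0.24 ± 0.12, adjusted p = 0.588). The adaptors that link receptor to PI3K were bounded too, Irs1 between 0.801 and 1.49 times control and Irs2 between 0.665 and 1.28 times. Downstream, the AKT kinase gene Akt1 lay between 0.816 and 1.45 times control and Akt2 between 0.904 and 1.21 times.

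Foxo1, a transcription factor that AKT restrains, had the lowest estimate of the 15. It had 23.7, 41.4 and 40.4 CPM in controls and 20.5, 29.9, 25.3 and 24.2 CPM in M-p110βKO. Control 16 lay below 3 of the 4 knockouts, and the log2 fold change was −0.49 ± 0.20 (adjusted p = 0.495, interval 0.531 to 0.957 times). Foxo3 was −0.29 ± 0.17. For glucose handling, the insulin-responsive transporter gene Slc2a4 (GLUT4) was at 989–1143 CPM in controls and 956–1184 CPM in M-p110βKO (0.03 ± 0.11, interval 0.87 to 1.20 times). Hexokinase 2 (Hk2) was −0.17 ± 0.11 and glycogen synthase (Gys1) was 0.14 ± 0.12. Of 15 tested genes of glucose uptake and glycogen 0 had an unadjusted p under 0.05, against 8.65% of all genes, and all 15 were bounded within 2-fold.

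The other class I subunits did not pass either. Pik3ca, which encodes p110α, had 144, 159 and 121 CPM in controls and 119–138 CPM in M-p110βKO (−0.16 ± 0.12, interval 0.754 to 1.06 times). Of the 7 subunit genes tested, 3 had an unadjusted p under 0.05 all 3 higher in estimate, where 4.22% of all genes were. Pik3cd (p110δ, a subunit best known from blood cells) had 18.9, 18.8 and 26.0 CPM in controls and 26.1–29.5 CPM in M-p110βKO with no overlap (0.41 ± 0.18, adjusted p = 0.516). Pik3r2, which encodes the regulatory subunit p85β, was 0.32 ± 0.15, and Pik3r3, which encodes p55γ, was 0.43 ± 0.17. Pik3r1, the gene of p85α, was −0.08 ± 0.27 with an interval of 0.635 to 1.41 times. Pik3cg and Pik3r5 were too low to test. The count ratio of Pik3ca to Pik3cb, which does not depend on scaling, was 13.7, 16.0 and 11.3 in controls and 12.3, 12.3, 14.2 and 10.2 in M-p110βKO. The log2 difference was −0.15 with an exact two-sided permutation p of 0.429, and per kilobase of exon the ratio was 8.09–12.7 over the 7 libraries. Among 12 other PI3K and PIP3 phosphatase genes the lowest p was that of Pik3c2b, a class II PI3K, at 40.3, 29.3 and 31.7 CPM in controls and 46.3–48.9 CPM in M-p110βKO (0.51 ± 0.14, adjusted p = 0.249). Grb10, an adaptor that dampens insulin receptor signaling, was 72.9–76.7 CPM in controls and 56.3–62.4 CPM in M-p110βKO (−0.32 ± 0.10, adjusted p = 0.293).

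**Figure D3:**
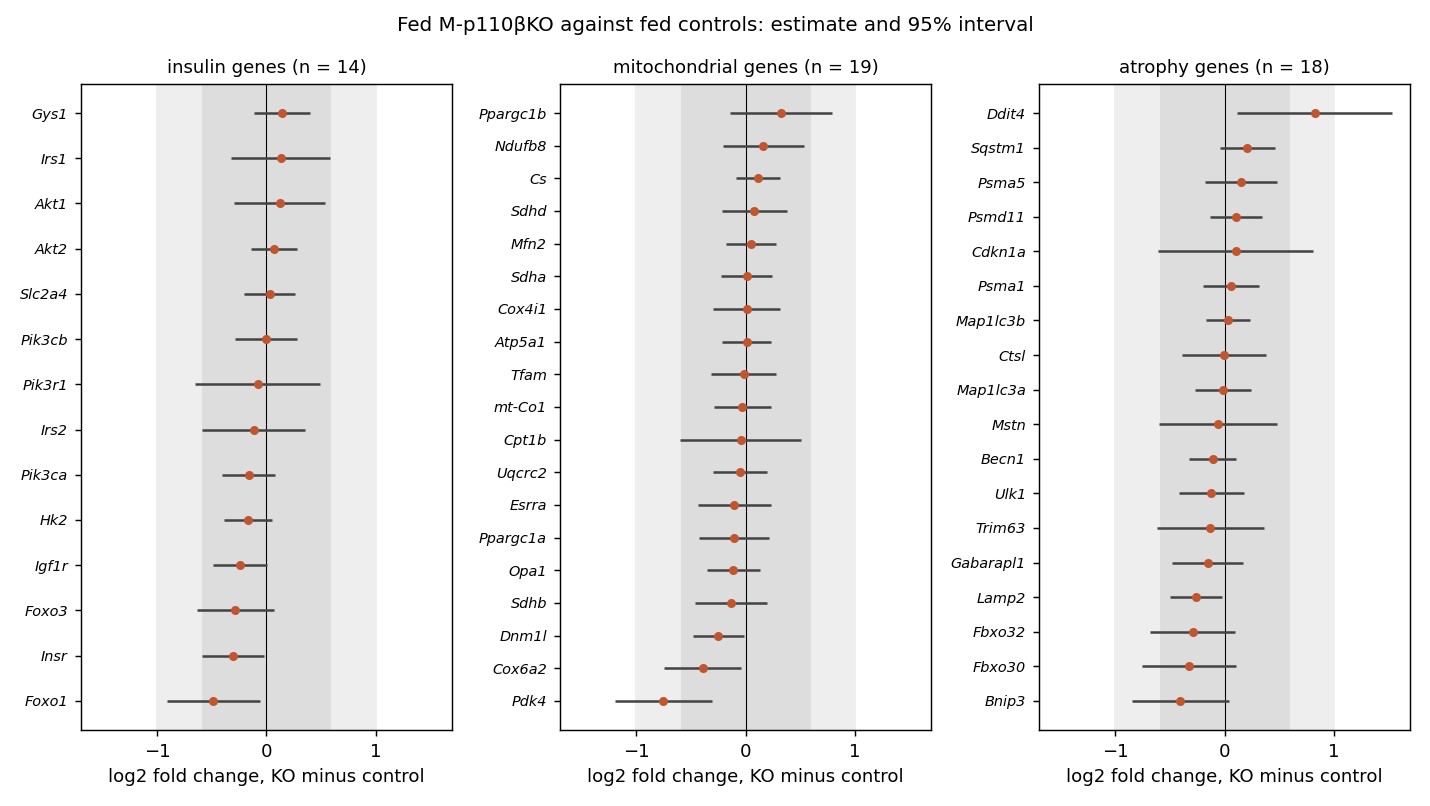
Log2 fold change of fed M-p110βKO minus control (points) with the 95% interval (lines) for 14 of the 15 insulin genes, 19 mitochondrial and 18 atrophy genes. Dark and light gray bands mark 1.5-fold and 2-fold, and the Pdk4 and Ddit4 intervals are the ones that leave the 2-fold band.

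Of 19 mitochondrial genes 0 passed the test, 18 were bounded within 2-fold and 15 within 1.5-fold. Ppargc1a, the coactivator PGC-1α that drives mitochondrial biogenesis, had 44.2, 53.3 and 51.4 CPM in controls and 39.8, 50.6, 45.2 and 48.1 CPM in M-p110βKO. The groups overlap, and the interval ran from 0.743 to 1.16 times control. Tfam, which maintains mitochondrial DNA, was −0.02 ± 0.14, citrate synthase (Cs) 0.11 ± 0.10, and the fusion genes Mfn2 and Opa1 0.05 ± 0.11 and −0.11 ± 0.12. Respiratory chain genes were as tightly bounded, with Sdha (complex II) between 0.857 and 1.19 times control, Uqcrc2 (complex III) between 0.812 and 1.15 times, Cox4i1 (complex IV) between 0.816 and 1.25 times and Atp5a1 (ATP synthase) between 0.86 and 1.18 times. Cox6a2, the muscle form of a complex IV subunit, was 558–676 CPM in controls and 392–548 CPM in M-p110βKO without overlap (−0.39 ± 0.17, adjusted p = 0.515). Dnm1l, the fission GTPase DRP1, was −0.25 ± 0.11.

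Of these 19 mitochondrial genes, the 1 whose interval left the 2-fold range was Pdk4. It encodes the kinase that shuts off pyruvate dehydrogenase and is a known FoxO and fasting target. It had 380, 926 and 922 CPM in controls and 379, 521, 416 and 449 CPM in M-p110βKO. Controls 17 and 18 were about as high as each other, and control 16 was level with the lowest knockout. The log2 fold change was −0.75 ± 0.21 (adjusted p = 0.273, interval 0.436 to 0.809 times). Without control 16 it was −1.07 ± 0.14 with an adjusted p of 0.000799, so 1 library decided this call. Leaving out the control that lay with the knockouts enlarges the difference by construction and adds no support. Without control 17 the Pdk4 estimate was −0.56.

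As lists, the respiratory chain and the TCA cycle lay close to no difference. Every tested gene was bounded within 2-fold in complex I (37), complex III (9), complex IV (15), ATP synthase (16) and the TCA cycle (21). Their median log2 fold changes were −0.05, −0.05, −0.11, −0.01 and 0.02, beside 0.008 over all genes. An unadjusted p under 0.05 was found in 0 of 21 TCA genes and in 2 of 37 complex I genes, both lower (Ndufa1 −0.31 and Ndufs4 −0.25), a share near the 4.43% of all genes that were lower at this threshold.

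Fatty acid and sugar genes leaned apart in their estimates, with 0 genes of either list past the threshold. Of 35 fatty acid uptake and oxidation genes 29 had an estimate below 0, and the median was −0.10, beside 0.008 over all genes. Unadjusted p was under 0.05 in 8 of the 35, all lower, where 4.43% of all genes were. The summed level of the 35 genes was 4270 CPM in control 16, 5188 and 5119 CPM in controls 17 and 18, and 4016–4151 CPM in M-p110βKO, so control 16 lay next to the knockouts. Lpl, the lipase that releases fatty acids from circulating triglyceride, had 599, 939 and 938 CPM in controls and 491, 399, 564 and 340 CPM in M-p110βKO. All knockouts lay under all controls (−0.88 ± 0.24, adjusted p = 0.265). The fatty acid transporter gene Cd36 was 385–456 CPM in controls and 283–337 CPM in M-p110βKO (−0.45 ± 0.13, adjusted p = 0.275). Cpt1a, a carnitine palmitoyltransferase, was −0.61 ± 0.18, and the β-oxidation enzymes Acadl and Acaa2, named after their values were seen, were −0.30 ± 0.11 and −0.34 ± 0.13. Cpt1b, another carnitine palmitoyltransferase gene and a member of the mitochondrial genes above, did not lean this way. Its estimate was −0.05, and it ran from −0.25 without control 17 to 0.34 without control 18.

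Of 19 glycolysis genes 16 had an estimate above 0 and the median was 0.22, beside 0.008 over all genes. Unadjusted p was under 0.05 in 5 higher genes, where 4.22% of all genes were, and in 1 lower gene. Pkm, pyruvate kinase, had 3716, 3336 and 4101 CPM in controls and 4868, 4371, 4600 and 5259 CPM in M-p110βKO without overlap (0.36 ± 0.12, adjusted p = 0.36). Gpi1 was 0.29 ± 0.10 and Gpd1, a glycerol phosphate dehydrogenase, 0.35 ± 0.12. The summed level of the 19 genes was 54536–55003 CPM in controls and 61183–69881 CPM in M-p110βKO. Ldhb, the heart form of lactate dehydrogenase, lay the other way at 133–144 CPM in controls, 110 and 112 CPM in M-p110βKO 19 and 21, and 48.5 and 50.9 CPM in M-p110βKO 20 and 22 (−0.78 ± 0.29, adjusted p = 0.432).

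None of 18 atrophy genes passed the test, 17 were bounded within 2-fold and 11 within 1.5-fold. The muscle ubiquitin ligase gene Trim63 (MuRF1) had 389, 544 and 560 CPM in controls and 400, 500, 403 and 518 CPM in M-p110βKO. The ranges overlap, and the interval ran from 0.65 to 1.29 times control. Fbxo32 (atrogin-1), the other main ligase of atrophy, had 587, 629 and 620 CPM in controls and 425, 563, 453 and 559 CPM in M-p110βKO, all lower than the controls (−0.29 ± 0.19, adjusted p = 0.675, interval 0.623 to 1.07 times). Fbxo30 (MUSA1) was −0.33 ± 0.21. Myostatin (Mstn), the secreted inhibitor of muscle growth, was 36.5–43.0 CPM in controls and 32.5–44.8 CPM in M-p110βKO, with an interval of 0.659 to 1.39 times.

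Autophagy and proteasome genes were held to similar limits. The autophagy initiator kinase gene Ulk1 lay between 0.748 and 1.13 times control, Becn1 between 0.798 and 1.08, Map1lc3b (LC3B) between 0.889 and 1.17, and the cargo receptor gene Sqstm1 (p62) between 0.969 and 1.37. Bnip3, a mitophagy receptor, was −0.40 ± 0.21. Of wider lists, 46 of 46 autophagy genes, 44 of 45 lysosome genes, 36 of 38 proteasome genes and 17 of 17 ligase genes were bounded within 2-fold. The share was 84% over all genes, 96% over genes at 3 to 5 log2 CPM and 98.5% over genes at 5 to 7. Medians of these lists were 0.01, 0.01, 0.09 and −0.04. Ctso, a lysosomal protease gene, had the lowest p of these at 13.2–17.1 CPM in controls and 9.52–10.5 CPM in M-p110βKO (−0.60 ± 0.14, adjusted p = 0.149).

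Ddit4 (REDD1), an inhibitor of mTORC1, was the 1 of the 18 atrophy genes whose interval left the 2-fold range. It had 54.8, 25.9 and 28.2 CPM in controls and 50.9, 75.1, 53.5 and 78.6 CPM in M-p110βKO. Control 16 again lay with the knockouts, the log2 fold change was 0.82 ± 0.34 (adjusted p = 0.488), and a level up to 2.89 times control was within the interval. Without control 16 it was 1.25 ± 0.37 (adjusted p = 0.144), with an upper limit of 4.08 times control, and without control 17 it was 0.64. Leaving out control 16 enlarges this difference by construction too and adds no support. Over the 52 insulin, mitochondrial and atrophy genes together, 0 passed, 7 (13.5%) had an unadjusted p under 0.05 beside 8.65% of all genes, 50 were bounded within 2-fold and 36 within 1.5-fold. The groups did not overlap in 6 of the 52, 5 lower and 1 higher, where 4.48% and 5.34% of all genes lay wholly lower or higher.

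Of the muscle identity genes, the 12 muscle fiber markers were all bounded within 2-fold, and the fast myosin heavy chain gene Myh4 lay between 0.96 and 1.38 times control. Bounds within 2-fold held for 10 of 13 myogenic factor genes and 19 of 26 myosin and fiber-type genes, beside 84% of all genes. Myf5, a factor of muscle precursor cells, was at 0.841–2.71 CPM in controls and 0.468–1.37 CPM in M-p110βKO, and its interval ran from 0.27 to 1.08 times control. The myogenic factor gene with the lowest p was Myod1, which turns on the muscle program, at 14.7–15.9 CPM in controls and 17.5–24.5 CPM in M-p110βKO without overlap (0.50 ± 0.15, adjusted p = 0.308). Of the myosin and fiber-type genes Tpm3, the slow tropomyosin gene, was lowest in p (−0.66 ± 0.22, adjusted p = 0.36). Myh2, the type IIA myosin gene, differed within the knockouts, at 291 and 268 CPM in M-p110βKO 19 and 21, 106 and 99.98 CPM in 20 and 22, and 163–219 CPM in controls.

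The markers of Schwann cells and nerve lay apart between the groups. All 5 tested members were lower in estimate at an unadjusted p under 0.05 (4.43% of all genes), the groups did not overlap in any of the 5 (4.48% of all genes), and the median log2 fold change was −1.16. Mbp, a myelin sheath protein, had 13.8, 25.4 and 27.6 CPM in controls and 9.68, 9.23, 10.8 and 9.71 CPM in M-p110βKO (−1.17 ± 0.27, adjusted p = 0.162). All knockouts lay under all controls, with control 16 the lowest control. None of the 5 genes passed in edgeR, while Mbp passed in DESeq2 (adjusted p = 0.0213) and in the fit of the 7 fed libraries alone (0.0372). Without control 16 Mbp was −1.42 ± 0.26 (adjusted p = 0.0179), and leaving out the lowest control enlarges the difference by construction. The summed level of the 5 genes was 90.3, 134 and 129 CPM in controls and 54.1–63.8 CPM in M-p110βKO. In bulk muscle, fewer cells of a type and less RNA per cell cannot be told apart. S100b and Sox10 were too low to test.

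For other cell types M-p110βKO 19 and 21 stood apart from the other fed libraries. Fibroblast markers summed to 888 and 870 CPM in M-p110βKO 19 and 21, 539 and 585 CPM in 20 and 22, and 540–635 CPM in controls. The 5 tested macrophage markers summed to 57.2 and 50.6 CPM in 19 and 21, 33.5 and 32.8 CPM in 20 and 22, and 24.8–40.4 CPM in controls, and 4 of their 5 estimates lay above 0 (median 0.57). Of 8 adipocyte markers 4 were tested, with a median log2 fold change of 1.24 that was −1.41 without M-p110βKO 19 and 21, and 1 of the 4 was bounded within 2-fold. The adipocyte gene Plin1, a lipid droplet protein, was 1.72 and 1.76 CPM in 19 and 21 and at most 0.36 CPM in the other fed libraries. Endothelial and smooth muscle lists had medians of −0.01 and −0.04. Without M-p110βKO 19 and 21 the fibroblast median was −0.07 in place of 0.24, and 0 genes were called. These libraries were left out after they were seen to be high in these markers. The fibroblast and adipocyte medians therefore fall by construction. That fit keeps only M-p110βKO 20 and 22 as knockouts, so its 0 calls add no support. The part of these cells in the results was not tested.

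**Figure D4:**
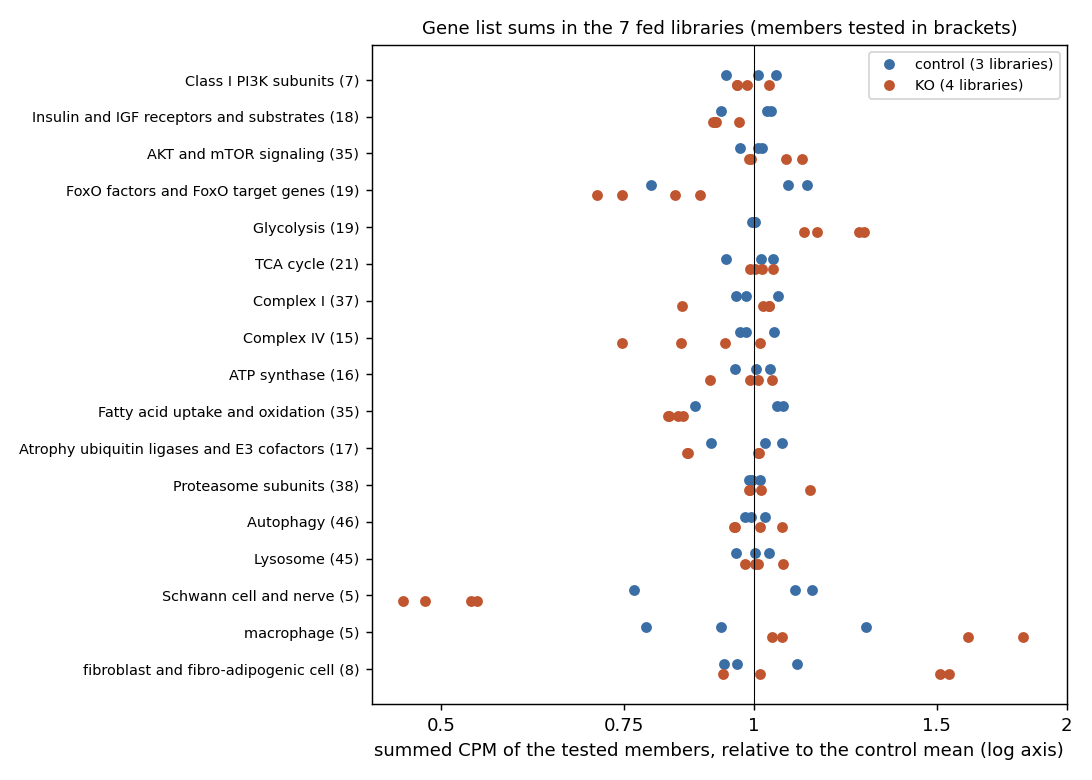
Summed CPM of the tested members of 17 gene lists in each fed library, relative to the mean of the 3 controls (horizontal log axis), with controls and M-p110βKO as separate rows of points. Controls and knockouts do not overlap for glycolysis, fatty acid genes and Schwann cell genes (control 16 lies nearest the knockouts in the last pair), and overlap for the TCA cycle, autophagy and lysosome lists.

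One mitochondrially encoded gene set single libraries apart. mt-Nd3, a complex I subunit, had 59.9, 58.0 and 34.1 CPM in the controls and 3754, 44.3, 3395 and 44.3 CPM in M-p110βKO 19 to 22. The knockouts split, 19 and 21 high and 20 and 22 level with the controls, and the log2 fold change was 5.16 ± 1.66 (adjusted p = 0.333). The pseudogene Gm28438, named after its values were seen, was its mirror image. It is annotated at chr1:24612775-24613119 (minus strand, GRCm38) and shares 323 of the 329 words of 20 bases in mt-Nd3 (chrM:9459-9806). In CPM without TMM factors, Gm28438 was at 2820–3220 in controls and at 10.3, 3030, 12.2 and 3640 in M-p110βKO 19 to 22. The sum of both was 2890–3830 over the 7 libraries. Which copy a read is counted for is thus uncertain, and the summed level is what the libraries share. Of the 14 libraries of the p110β line, mt-Nd3 was high in 3, all knockouts (19, 21 and the fasted mouse 27, 2650–3820), and at 20.6–62.8 in the other 11. In the 15 libraries of the p110α line it was 2000–4100 in every library. Mice 19, 21 and 27 thus shared the pattern of the p110α line, and whether they differ in genetic background from the other mice of the p110β line was not tested. Leaving out M-p110βKO 19 and 21, the high fed libraries, gave −0.19 ± 1.34 for mt-Nd3, a fall that follows by construction. Of the 13 mitochondrially encoded genes 9 were bounded within 2-fold.

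**Figure D5:**
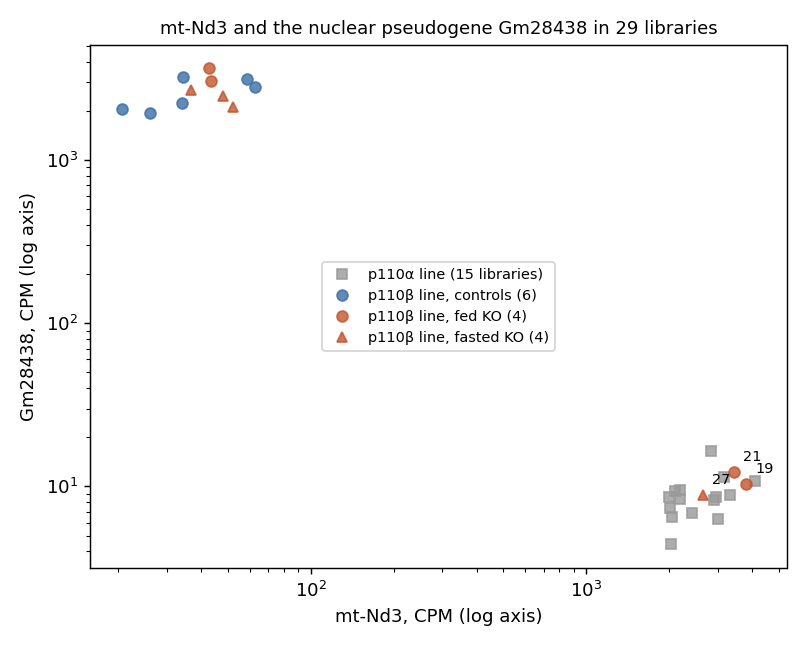
Level of the pseudogene Gm28438 against mt-Nd3 in all 29 libraries, in CPM without TMM factors on log axes, by line, genotype and feeding state. All 15 p110α-line libraries and mice 19, 21 and 27 lie at high mt-Nd3 and low Gm28438, and the other 11 p110β-line libraries lie at the opposite corner.

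Whether the fed comparison differed from others was tested directly. Between fasted and fed mice of the p110β line the genotype effect differed in 13 genes of 12249 (0.106%), and in 0 of the 52 insulin, mitochondrial and atrophy genes (lowest adjusted p 0.222, Dnm1l). Among the 5 lowest in p were Srxn1 (an antioxidant sulfiredoxin, 0.36 fed and −0.78 fasted), Gm45221 (−2.00 and 0.95), Cyp26b1 (−2.85 and 0.81) and Esrrg (a nuclear receptor that drives oxidative genes, −0.48 and 0.82). Fasted controls 23 and 24 stood apart in adipocyte markers, which summed to 442 and 473 CPM there and to 132–194 CPM in the other 5 fasted libraries. Without these controls 7 genes were called, of which 1 was among the 13. The count was 0 with limma-voom, 0 without control 17 or without M-p110βKO 19, 2 without control 18, 4 or 5 without M-p110βKO 22 or 21, and 44 without control 16. In fasted mice 109 of 12249 genes (0.89%) passed for genotype.

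Against the p110α line, which shares no library with this one, the fed genotype effect differed in 17 of 12760 genes (0.133%), and in 0 of the 52 (lowest adjusted p 0.0536, Igf1r). The count was 0 without control 18, 2 without control 17, 6 to 10 without M-p110βKO 19, 21 or 22, and 38 without control 16. The 5 lowest in p were Igfbp5, an IGF-binding protein (−1.30 in M-p110αKO and 0.16 in M-p110βKO), Cilp (0.98 and −3.87), the retinoic acid receptor gene Rara (−0.56 and 0.68), the myosin-binding protein gene Mybph (−1.98 and 0.71) and the cytoskeletal gene Obsl1 (−0.53 and 0.60). In fed M-p110αKO 76 of 12433 genes (0.611%) passed. Of these, 73 were tested in the p110β line, where 0 passed. An unadjusted p under 0.05 was found in 15 of the 73 (12 in the same direction), beside 8.65% of all genes. The estimate had the same sign in both lines in 52 of the 73, a share that was not compared with that over all genes. Bounds within 2-fold held for 56 (76.7%), beside 84% of all genes. The median absolute log2 fold change of the 73 was 0.972 in M-p110αKO, the contrast that chose them, and 0.242 in M-p110βKO, beside 0.146 over all genes. The M-p110βKO interval left out the M-p110αKO estimate in 65 of the 73. That count takes no account of the SE of the M-p110αKO estimates, which were chosen for passing, so it tests no difference. The test of the difference between lines was passed by 8 of the 73.

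The muscle gene Mss51 was one of the 73 that leaned the same way, at 23.6, 35.7 and 51.2 CPM in controls and 12.1–19.2 CPM in M-p110βKO (−1.19 ± 0.47, adjusted p = 0.473, and −2.30 in M-p110αKO). Ighm, the immunoglobulin heavy chain gene of B cells, leaned the other way (0.89 ± 0.35 and −3.25), and its test of the difference between lines gave an adjusted p of 0.0356. Cdh4, a cadherin gene at −2.90 in M-p110αKO, was 0.04 ± 0.31 in M-p110βKO, with an interval of 0.655 to 1.62 times. Of 144 tested genes within 10 Mb of Pik3cb, 0 passed and 13 (9.03%) had an unadjusted p under 0.05, beside 8.65% of all genes. Cish had the lowest p of the 144 (adjusted p = 0.241 in edgeR).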

How the data were processed

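RNA of 29 libraries was measured by RNA-Seq from an mRNA library kit. The authors aligned reads with STAR to GRCm38 and counted them per gene with featureCounts of Subread (their versions: not given in the sources used here), and the deposited values are raw counts for 48023 genes. Gene symbols and positions came from GENCODE M21. The 14 libraries of the p110β line were fitted with 1 coefficient per group in edgeR 4.0.16 (R 4.3.3), with filterByExpr (min.count 10, min.total.count 15), TMM factors and the quasi-likelihood F test. P values were adjusted across all tested genes by the Benjamini-Hochberg method and called at 0.05. The SE is the absolute log2 fold change over the square root of F, and 95% intervals use the t quantile of the fit. The test of the difference between lines used all 29 libraries. Genes were named by a rule: the 52 insulin, mitochondrial and atrophy genes and class I subunits, up to 3 members of lowest p in each of 37 lists, marker genes, the 10 largest changes in M-p110αKO, and the 5 lowest in p of each test of a difference. Members, lists and rule were chosen with earlier results of these data known. A few genes that meet the rule are not reported here. Other genes are said to be named after their values were seen. Within a group, chi-square per degree of freedom between libraries was 3.92–13.1, so no library was a copy. Alternatives were other scalings and filters, DESeq2 1.42.0, limma-voom (limma 3.58.1), other sets of libraries and the omission of each fed library. Fits without M-p110βKO 19 and 21, and without fasted controls 23 and 24, were added after the data were seen. The tests were tested on simulated data. The libraries' 5859311–8269530 reads limit precision as the intervals show, which hold both counting error and the spread between libraries.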

Additional observations from a re-analysis of the deposited data

Results flagged for a closer look

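Among 74 genes checked in the 4 fed M-p110βKO libraries for 1 library far from the others, Sqstm1 stood out: it was at 490 CPM in M-p110βKO 22 and at 392–403 CPM in the other 3. The gap was 0.885 of the range, over the 95% limit of 0.829 for 4 libraries, a limit that chance passes in about 1 of 20 groups.

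Genes whose genotype effect differed between fasted and fed mice of the p110β line by edgeR's interaction test were Srxn1 (−1.14 on the log2 scale, fasted minus fed), Gm45221 (2.95), Cyp26b1 (3.67) and Esrrg (1.30), all among the 5 of lowest p. Those whose fed effect differed between the lines, p110α minus p110β, were Rara (−1.23), Cilp (4.86), Igfbp5 (−1.44), Mybph (−2.68) and Obsl1 (−1.12). Adipocyte markers in fasted controls 23 and 24, and the place of control 16 near the knockouts for Cilp, move with these results, and their part in them was not tested.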

How the results depend on the processing

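Loss of p110β called 0 genes under both other scalings, a filter of 1 CPM in 3 libraries, the fit without mitochondrially encoded and the 20 most abundant genes, limma-voom, and without M-p110βKO 19 and 21 or fasted controls 23 and 24. It called 224 with no filter beyond 1 read (edgeR then gave every gene the same spread, since its prior degrees of freedom became infinite), 30 with DESeq2, 12 with the 7 fed libraries alone and 4 with all 29. Leaving out 1 library gave 0 to 70, the 70 without control 16. Listed genes called were 12 with no filter, 2 with DESeq2, 2 with the fed libraries alone and 0 to 3 on leaving out 1 library. Counts of genes bounded within 1.5-fold or 2-fold lay within 1.5 times the counts given above under every alternative run, with 9314 to 10584 genes within 2-fold. Shares of the genes tested moved more. Within 2-fold the share was 41.8% with no filter beyond 1 read. In the other fits it was 74.6% (without M-p110βKO 19 and 21) to 89% (the 7 fed libraries alone). Within 1.5-fold the shares of these 3 fits were 28.7%, 42.8% and 61.6%.

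The fasted minus fed test called 6 genes with upper-quartile factors, 377 with no filter, 40 with DESeq2, 0 with limma-voom, 7 without fasted controls 23 and 24 and 0 to 44 (without control 16) on leaving out 1 library. The test between lines called 287 with no filter, 72 with DESeq2 and 0 to 38 (without control 16) on leaving out 1 library. The PC1 exact p was 0.0571 with unit variance and 0.0667 to 0.267 on leaving out 1 library, where 6 libraries allow no p under 0.0667. The causes of these shifts were not tested beyond the prior degrees of freedom. Of 3117 values of 174 named genes under an alternative, 2987 moved by less than 1 SE, 56 moved by more, and 74 (in 29 genes) passed the threshold, with 0 called in the opposite direction.

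No paired analysis was possible because the groups share no replicate numbers. With 3 controls, of which 1 lay near the knockouts, the intervals of most genes under 3 log2 CPM left room for a 1.5-fold change. Counts summed over exons do not show the deleted exon, and the labels give no batch.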

Other observations

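Some genes outside the lists, named after their values were seen, followed the order of control 17 and control 18 high, with control 16 and all knockouts low. Zbtb16, a zinc finger transcription factor, had 62.3, 153 and 178 CPM in controls and 51.5, 74.0, 60.2 and 55.3 CPM in M-p110βKO (−1.12 ± 0.23, adjusted p = 0.113 in edgeR). Per2, a circadian clock component, had 18.4, 47.0 and 40.4 CPM against 17.7–21.3 CPM (−0.82 ± 0.22, adjusted p = 0.249). Fkbp5, a co-chaperone of the glucocorticoid receptor, had 24.5, 66.6 and 62.7 CPM against 20.7–39.4 CPM (−0.79 ± 0.32, adjusted p = 0.487). Tsc22d3 did not follow the order, at 321–386 CPM in controls and 296–372 CPM in M-p110βKO. Without control 16, Zbtb16 and Per2 passed (adjusted p = 7.2e-05 and 0.00101) and Fkbp5 did not (0.0928). These genes were picked for the place of control 16, so leaving it out enlarges their differences by construction and adds no support.

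Other genes followed M-p110βKO 19 and 21. Slc15a2, a peptide transporter, had 37.6 and 41.8 CPM in those, 6.06 and 6.70 CPM in M-p110βKO 20 and 22, 12.4 CPM in control 16 and 0.338 and 0.12 CPM in controls 17 and 18. The cytokine-induced gene Cish lay the other way within the knockouts, at 9.06 and 11.0 CPM in 19 and 21 and 29.7 and 27.9 CPM in 20 and 22, all above the 3.04–8.46 CPM of controls (1.77 ± 0.46, adjusted p = 0.241). Cish lies within 10 Mb of Pik3cb, and the part of this position in its level was not tested. Car3, an abundant muscle carbonic anhydrase, had 2266–3017 CPM in controls and 4155–4769 CPM in M-p110βKO (0.79 ± 0.36, adjusted p = 0.554), and it passed in the fit of the 7 fed libraries alone.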
